A study of Homo sapiens with 4 samples.

Results

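The mitochondrial ribosomal protein genes were taken as all probes on the array that report a gene whose symbol is MRPL or MRPS followed by digits and at most 1 letter. The rule used the platform's gene symbols and no measured value. It gave 65 probes of 61 genes among 29640 non-control probes. The large subunit was represented by 42 probes of 39 genes, counting MRPS18A and MRPS30, whose proteins sit in the large subunit despite their names, and the small subunit by 23 probes of 22 genes. Of the 61 genes, 36 have a counterpart in the bacterial ribosome and 25 are specific to mitochondria.

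DLD-1 and HT-29, both established human colorectal cancer cell lines, were each compared with and without 5-aza-2'-deoxycytidine, a nucleoside analogue that is built into DNA and traps DNA methyltransferases, so that methylation is lost as cells divide. Treated cells were grown for 24 h and then kept in 1 μM of the drug for 96 h in RPMI1640 with serum. The labels give no genotype, drug or vehicle for the untreated cells, and nothing on clones or passages. Each line had 2 oligonucleotide arrays with 2 colours, both of the same pair of conditions, array 1 with treated RNA in Cy5 and array 2 with the dyes exchanged. The series set out to find genes silenced by methylation, and its text does not single out this family.

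Mitochondrial ribosomes make the few proteins encoded by mitochondrial DNA, all of them core subunits of the respiratory chain and of ATP synthase. Their RNAs come from mitochondrial DNA, but every ribosomal protein is encoded in the nucleus, translated in the cytoplasm and imported. The family is therefore spread over many chromosomes, is transcribed in nearly all cells, and is commonly described as having housekeeping promoters rich in CpG dinucleotides, the sites of DNA methylation.

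Because the drug acts on CpG methylation, the sequence around the transcription starts was examined first. RefSeq (GRCh38.p14) gave 1 start window for 56 of the 61 genes, from 250 bases before to 50 bases after the start; MRPL2, MRPL13, MRPL15, MRPL35 and MRPS28 were not found in the table. The median window of a member held 24 CpG dinucleotides, against 22 over 15842 protein-coding genes and 13 over all 27305 genes listed. Members ranged from 3 CpG in MRPL14 to 51 in both MRPL41 and MRPS6. The observed number of CpG over the number expected from base composition had a median of 0.881 in members, 0.756 in protein-coding genes and 0.558 in all genes. Of the 56 windows 52, or 92.9%, had a ratio over 0.6 and a GC content over 50%, against 61.9% of protein-coding genes; the 4 that did not were MRPL11, MRPL14, MRPL48 and MRPS22.

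**Figure D1:**
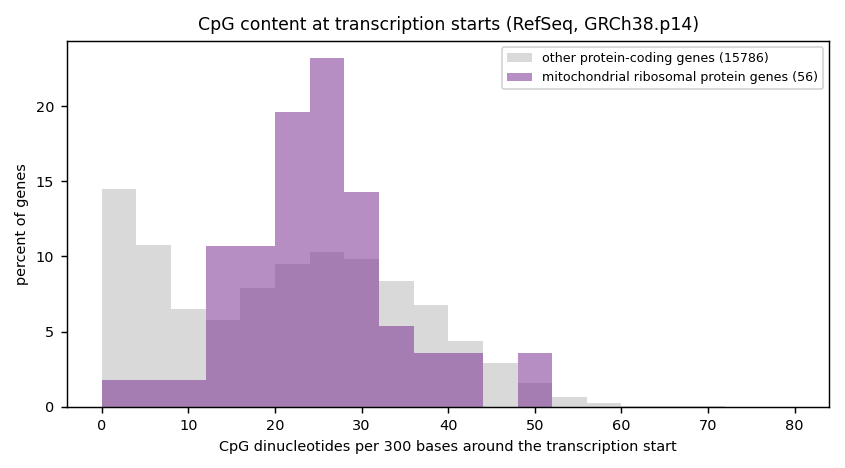
Number of CpG dinucleotides in the 300-base window at the transcription start (x axis) and the percent of genes in each bin (y axis), for 56 mitochondrial ribosomal protein genes and for the other protein-coding genes. The members pile up around their median of 24 and are sparse at the low end, where the other genes have their tallest bar.

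The bases before the start are shown for 5 members whose array ratio, given below, had the same sign on all 4 arrays, to let the reader compare CpG-poor and CpG-rich starts; capitals mark each CpG. MRPL22 and MRPL39 and MRPL14 read lower in the channel taken as treated, and MRPS10 and MRPL45 read higher. For MRPL14 this holds for probe AGhsB251524 only, since its other probe, AGhsB130622, took both signs. The positions are chr5:154940823-154941072 on the plus strand for MRPL22, chr21:25607482-25607731 on the minus strand for MRPL39, chr6:44126268-44126517 on the minus strand for MRPL14, chr6:42217862-42218111 on the minus strand for MRPS10 and chr17:38296918-38297167 on the plus strand for MRPL45.
MRPL22: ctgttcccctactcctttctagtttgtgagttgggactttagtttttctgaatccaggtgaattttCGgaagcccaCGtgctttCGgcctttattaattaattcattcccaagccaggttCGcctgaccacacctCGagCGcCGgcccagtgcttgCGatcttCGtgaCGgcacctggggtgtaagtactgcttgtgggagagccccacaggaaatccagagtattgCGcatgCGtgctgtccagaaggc
MRPL39: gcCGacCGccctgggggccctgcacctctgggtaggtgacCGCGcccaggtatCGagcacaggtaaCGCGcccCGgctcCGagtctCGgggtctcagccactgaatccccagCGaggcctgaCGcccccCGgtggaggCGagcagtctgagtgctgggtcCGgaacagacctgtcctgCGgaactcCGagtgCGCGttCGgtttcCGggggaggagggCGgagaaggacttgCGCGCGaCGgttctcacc
MRPL14: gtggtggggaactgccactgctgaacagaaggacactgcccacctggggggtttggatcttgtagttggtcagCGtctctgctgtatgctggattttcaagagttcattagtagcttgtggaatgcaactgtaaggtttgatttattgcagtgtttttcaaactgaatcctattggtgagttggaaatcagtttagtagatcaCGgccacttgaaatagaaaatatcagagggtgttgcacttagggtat
MRPS10: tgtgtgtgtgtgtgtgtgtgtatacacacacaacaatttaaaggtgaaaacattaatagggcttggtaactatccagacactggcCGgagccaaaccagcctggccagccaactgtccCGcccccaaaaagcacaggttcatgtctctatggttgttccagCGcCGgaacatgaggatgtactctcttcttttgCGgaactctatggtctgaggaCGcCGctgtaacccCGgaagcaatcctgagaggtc
MRPL45: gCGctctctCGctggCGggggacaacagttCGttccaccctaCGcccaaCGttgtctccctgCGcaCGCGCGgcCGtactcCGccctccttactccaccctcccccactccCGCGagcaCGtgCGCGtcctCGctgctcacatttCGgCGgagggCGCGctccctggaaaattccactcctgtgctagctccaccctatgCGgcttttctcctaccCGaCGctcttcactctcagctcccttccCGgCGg

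Among members that read lower on all 4 arrays, the 250 bases held from 2 CpG in MRPL14 (probe AGhsB251524) to 26 in MRPL39. MRPL22 held 12. The higher members also differed, with 8 CpG in MRPS10 and 27 in MRPL45. Over the 53 measured member probes with a start window, the CpG count and the mean log2 ratio had a Spearman correlation of 0.08, and over all 7652 probes matched to a window it was 0.02. Both are descriptions across probes that share arrays and base composition. No order of the member ratios by CpG count was visible.

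Short matches to the motifs of 3 regulators linked to nuclear genes for mitochondria were counted on both strands of the 300-base windows. The ETS letters CCGGAAG, bound by factors such as GABP, were found in 22 of 56 members, or 39.3%, against 10.6% of all windows, and 2217 of the 15842 of protein-coding genes. The YY1 letters ATGGCGG were found in 17 members, or 30.4%, against 5.68% of all windows and 7.65% of those of protein-coding genes. The NRF1 letters GCGCANGCGC were found in 4 members, or 7.14%, which lies between the 6.05% of all windows and the 8.21% of protein-coding genes, and MRPL45 was among them. One or more of the 3 was found in 38 members (67.9%) and in 19.3% of all windows and 25.6% of those of protein-coding genes. The median mean log2 ratio was -0.01 for the 20 measured probes with the ETS letters, -0.15 for the 13 with the YY1 letters, 0.07 for the 4 with the NRF1 letters and -0.07 for the 19 with none of the 3; these groups can share probes, and their difference was not tested. MRPL46 and MRPS11 start head to head on chromosome 15, on opposite strands, and their windows overlap by 181 bases. The MRPL46 log2 ratios were 0.14 and -0.74 in DLD-1 and -0.15 and 0.39 in HT-29, while the measured MRPS11 probe gave -0.57 and 0.37 in DLD-1 and -0.09 and -0.30 in HT-29. By this probe the neighbours took opposite signs on 3 of the 4 arrays. Another probe, described as MRPS11 but without a platform symbol, read above 0 on all 4 arrays, so the count depended on the probe.

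A probe was called measured on an array when at least 1 channel exceeded its local background by 2 standard deviations of that background. By this rule 57 member probes of 55 genes were measured on all 4 arrays. The other 8 were MRPL20, on no array, MRPS34, on 1, the MRPS11 probe AGhsB100111, on 2, and MRPL4 (probe AGhsB100714), MRPL9, MRPL35, MRPS35 and MRPL58, the last a ribosome-bound peptidyl-tRNA hydrolase, on 3 each. No member spot was saturated or marked bad. Over all probes, 19549 to 22979 had both channels above background on an array, and for members 56 to 61 of 65 did. The position of a spot's print block accounted for 23.2% to 49.7% of the variance of the log2 ratios on an array, and the members lay in 35 of the 48 blocks, at most 5 in any one. Of the 12 probes for colorectal epithelium markers, 10 were measured on all arrays, but so were 5 of 6 for fibroblasts, 3 of 4 for leukocytes and 1 of 2 for endothelium, so that detection did not set the labelled cell type apart; none of these marker probes passed the both-line test.

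All ratios below are log2 of channel 2 over channel 1 after loess normalization, so that 1 unit is a 2-fold difference. They are read as treated over untreated on all 4 arrays, although the labels put the treated RNA in channel 1 on both dye-exchanged arrays. Direction is not settled: over all probes the ratios of the DLD-1 pair correlated at r = -0.45 with channel 2 read as treated, those of the HT-29 pair at 0.00, and those of the array 1 hybridisations of the lines at 0.51. The reading was chosen with the strongest probes in view, since PAGE5, of the cancer-testis genes, a class known for silencing by promoter methylation, had a mean of 3.30 with channel 2 as treated and 0.25 in the labels' order. The counts of members called and of members with 1 sign are therefore also given with the sign of array 2 turned, as the labels have it. Among the 57 members the DLD-1 pair correlated at -0.44, the HT-29 pair at 0.19 and the array 1 hybridisations at 0.47, a description across probes.

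No mitochondrial ribosomal protein gene passed the test of a change shared by both lines. The 2 arrays of a line were averaged to 1 value and the line values were tested against 0 with limma over 18868 probes, with Benjamini-Hochberg adjustment; 33 probes passed at 0.05, which is 0.175%, and 0 of 57 members did. In the labels' order 135 probes passed, or 0.715%, and again 0 of 57 members. At an unadjusted p under 0.05, 4 members were below 0 (7.02%, against 1.38% of all probes) and 0 were above 0 (against 3.44%). In the labels' order 5 members were above 0 (8.77%, against 8.36%) and 0 were below (against 2.54%). With only 2 lines, and with labels that do not say the cultures were separate, these p-values do not measure the spread between cultures. Nor do they measure a member's own spread between the lines. With channel 2 as treated, limma's standard error was 0.22 for every member tested, so p followed the size of the mean alone.

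The 4 members with the lowest p were MRPS28, MRPL22, MRPL43 and MRPS7. MRPL22, whose bacterial counterpart lines the tunnel through which the new protein leaves the ribosome, had log2 ratios of -0.63 and -0.51 in DLD-1 and -0.50 and -0.82 in HT-29. All 4 arrays were low and close together, with line means of -0.57 ± 0.09 and -0.66 ± 0.23 (SD of 2 arrays). Its mean of -0.61, about 0.674 of the untreated signal in DLD-1 and 0.634 in HT-29, had an adjusted p of 0.543 with limma, and in the labels' order the mean was 0.05.

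The raw spots of MRPL22 can be set beside these ratios. The deposited background-subtracted intensities were, for channel 1 and then channel 2, 3871 against 2894 and, with the dyes exchanged, 3716 against 2352 in DLD-1. In HT-29 they were 2605 against 1764 and, with the dyes exchanged, 8066 against 4707. Channel 1 was the brighter on all 4 arrays before normalization. The raw channels were not balanced, so this alone does not give the sign of a ratio. On DLD-1 array 2, MRPL45 had 5432 in channel 2 against 6645 in channel 1, but a log2 ratio of 0.12 after loess.

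MRPS28, a small subunit protein, had log2 ratios of -0.35 and -0.80 in DLD-1 and -0.08 and -1.31 in HT-29. The arrays with exchanged dyes were the lower in both lines, so the line means of -0.57 ± 0.31 and -0.69 ± 0.87 (SD of 2 arrays) carry wide errors. The mean was -0.63, with an adjusted p of 0.487 in limma, the lowest of any member with channel 2 as treated, and in the labels' order it was 0.42. Its background-subtracted intensities, channel 1 against channel 2, were 1658 against 1654 and, after the dye exchange, 1594 against 692.1 in DLD-1. In HT-29 they were 299.4 against 383.6 and, after the exchange, 3514 against 1568. Before loess normalization, then, the array 1 spots were level or brighter in channel 2.

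MRPS7, the counterpart of a bacterial protein that helps to fold the head of the small subunit, had log2 ratios of -0.05 and -1.04 in DLD-1 and -0.37 and -0.75 in HT-29. The mean was -0.56 with channel 2 as treated and 0.34 in the labels' order, with a limma adjusted p of 0.690 in the first. MRPL43, a mitochondria-specific large subunit protein, gave 0.01 and -0.60 in DLD-1 and -0.86 and -0.84 in HT-29. Its HT-29 arrays were the closest pair of these 4 members, at -0.85 ± 0.02 (SD of 2 arrays). Channel 2 of MRPL43 exceeded background on only 2 of the 4 arrays, so its lower values come near the limit of detection.

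**Figure D2:**
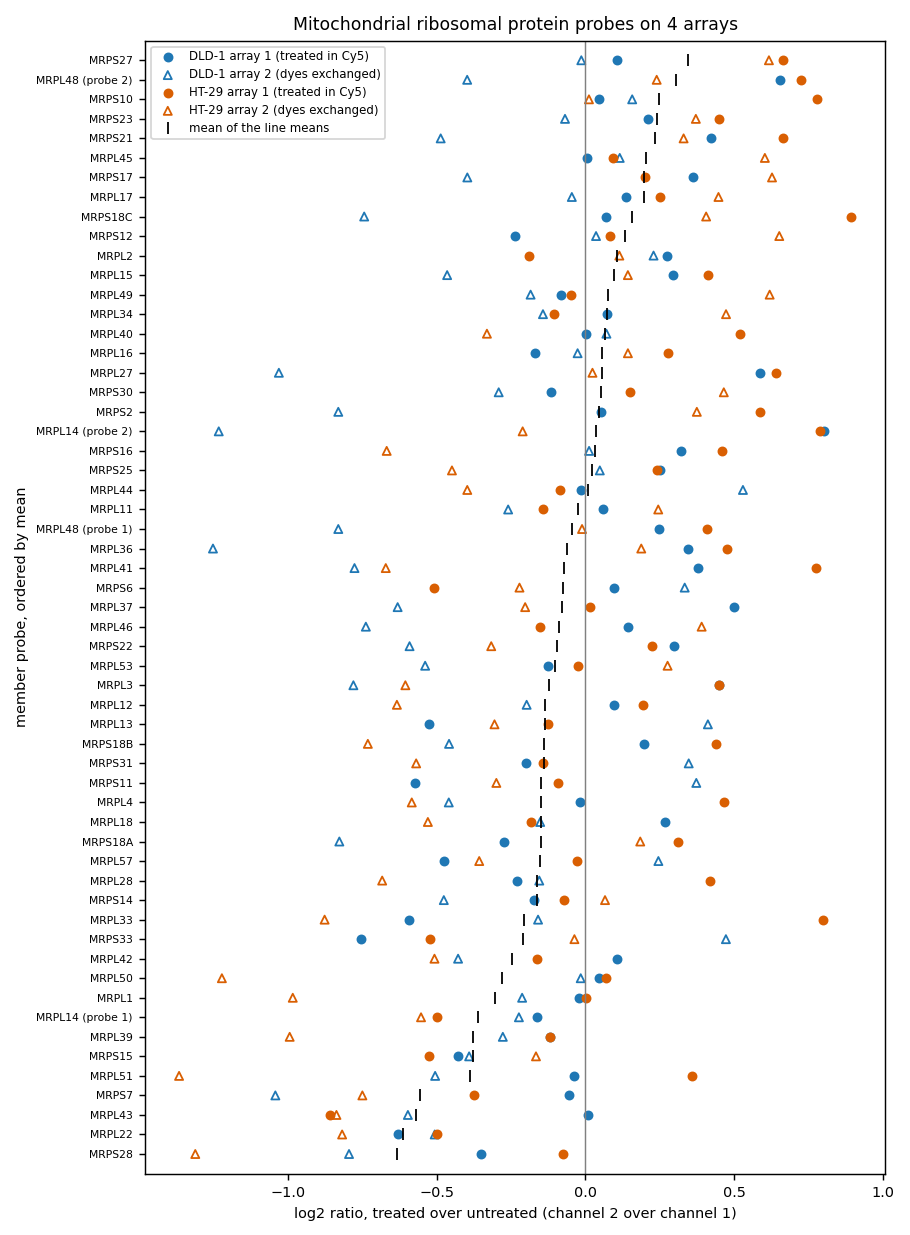
Log2 ratio of channel 2 over channel 1 (x axis), read as treated over untreated, for each of the 57 member probes measured on all arrays (y axis, ordered by mean), with filled circles for array 1 and open triangles for the dye-exchanged array 2 of each line. MRPL14 probe 1 is AGhsB251524 and probe 2 AGhsB130622, MRPL48 probe 1 is AGhsA100113 and probe 2 AGhsB041513; for most members the arrays straddle 0, and 6 lie below 0 and 2 above 0 on all 4.

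Of 57 members, 6 were below 0 on all 4 arrays, against 3.31% of all probes, and 2 were above 0, against 4.53%. The 6 were MRPS28, MRPL22, MRPS7, MRPS15, MRPL39 and one MRPL14 probe, and the 2 were MRPS10 and MRPL45. In the labels' order, where by construction none of these 8 probes can keep 1 sign, 9 other probes were above 0 on all 4 arrays, against 8.65% of all probes, and 0 were below, against 7.28%; these were MRPL3, MRPL12, MRPL37, MRPL41, MRPL48, MRPL50, MRPS18B, MRPS22 and the second MRPL14 probe. When the median of each print block was set to 0, only MRPS28 of the 8 kept 1 sign, and MRPL46 and MRPS22 joined it below 0.

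MRPS15, the counterpart of a bacterial protein that binds ribosomal RNA early in small subunit assembly, had -0.43 and -0.39 in DLD-1 and -0.53 and -0.17 in HT-29. Of the 6 lower members only MRPS15 had a mean below 0 in the labels' order too, at -0.10 against -0.38. MRPL39, a mitochondria-specific protein of the large subunit, had -0.12 and -0.28 in DLD-1 and -0.12 and -0.99 in HT-29. Its mean of -0.38 rested mostly on HT-29 array 2, since without that array it was -0.16. Each had a limma adjusted p of 0.963.

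The 2 members above 0 throughout had small ratios. MRPS10, a small subunit protein with a bacterial counterpart, gave 0.04 and 0.16 in DLD-1 and 0.78 and 0.01 in HT-29, so that 1 array set its mean of 0.25. MRPL45, which helps to hold the mitochondrial ribosome against the inner membrane, gave 0.01 and 0.12 in DLD-1 and 0.09 and 0.60 in HT-29, with a mean of 0.20. Both had a limma adjusted p of 0.963.

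With channel 2 as treated, the highest mean among members belonged to MRPS27, an RNA-binding protein of the pentatricopeptide repeat family in the small subunit. Its log2 ratios were 0.10 and -0.01 in DLD-1 and 0.67 and 0.62 in HT-29. HT-29 stood apart from DLD-1 in this reading, at 0.64 ± 0.03 against 0.05 ± 0.08 (SD of 2 arrays). In the labels' order the MRPS27 means were 0.02 in HT-29 and 0.06 in DLD-1. The difference between the lines was not tested. MRPS23, a mitochondria-specific small subunit protein, had 0.21 and -0.07 in DLD-1 and 0.45 and 0.37 in HT-29. MRPS21, another small subunit protein, had 0.42 and -0.49 in DLD-1 and 0.66 and 0.33 in HT-29. In all 3 the HT-29 arrays were both above 0 and the DLD-1 arrays were on both sides of it, with channel 2 as treated. Their means over both lines in the labels' order were 0.04 for MRPS27, 0.09 for MRPS23 and 0.31 for MRPS21. At the other end MRPL51, a mitochondria-specific large subunit protein, had -0.04 and -0.51 in DLD-1 and 0.36 and -1.37 in HT-29, so the 2 HT-29 arrays lay on opposite sides of 0.

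**Figure D3:**
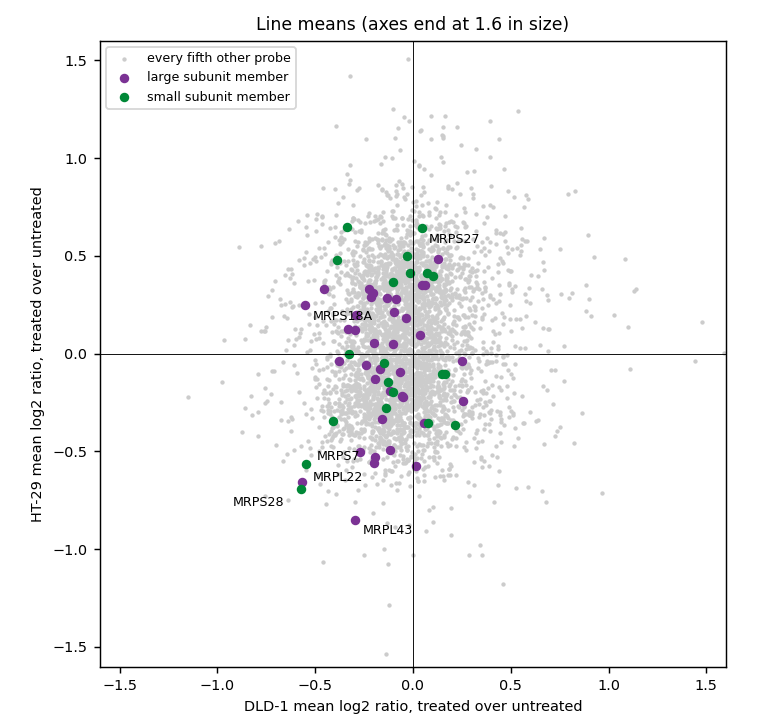
Mean log2 ratio of the 2 arrays in DLD-1 (x axis) and in HT-29 (y axis), treated over untreated with channel 2 read as treated, for large and small subunit members and 1 in 5 of the other probes. The members lie within the cloud; MRPL22, MRPS28 and MRPS7 sit at its lower left edge in both lines, and MRPS18A is below 0 in DLD-1 and above 0 in HT-29.

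Within a single line no member reached a 2-fold difference with the same sign on both arrays. In DLD-1 this held for 0 of 60 measured members, with a background of 0.123% of 21218 probes. In HT-29 it held for 0 of 59, with a background of 0.128% of 22646 probes. In the labels' order the members were again 0 and 0, with backgrounds of 0.382% and 0.309%. Taking any size, 17 of 60 members were lower on both DLD-1 arrays (background 17.3%) and 8 were higher (14.6%). In HT-29, 17 of 59 were lower (28.5%) and 17 were higher (27.9%). In the labels' order 7 of 60 were lower in DLD-1 (31.6%) and 28 were higher (36.5%), and 8 of 59 were lower in HT-29 (20.4%) and 17 were higher (23.2%). In 4 members, MRPL16, MRPS6, MRPS18A and MRPS30, every array of one line was above 0 and every array of the other below with channel 2 as treated, against 7.41% of all probes.

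The family's medians lay near 0 and differed more by dye orientation than by line. The median log2 ratio of the 57 was 0.04 and -0.28 on the 2 DLD-1 arrays and 0.15 and -0.21 on the 2 HT-29 arrays. Over all probes the medians were -0.01, -0.04, 0.05 and 0.03 in the same order. Members above 0 numbered 33 and 14 in DLD-1 and 34 and 24 in HT-29, so both array 1 hybridisations read slightly high and both dye-exchanged arrays low. The median of the member means was -0.08, against 0.01 for all probes, and 34 of 57 means were below 0, against 49.0% of all probes. In the labels' order the median was 0.19, against 0.01, and 17 of 57 means were below 0, against 48.8%. The direction of the family's median thus turned with the reading of the channels. In bulk RNA of this kind, a change in the share of cells cannot be told apart from a change in RNA per cell.

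The spread among members was wide beside these medians. In DLD-1 they ran from -0.75 in MRPS33 to 0.80 in MRPL14 with treated RNA in Cy5, and from -1.25 in MRPL36 to 0.53 in MRPL44 after the dye exchange. In HT-29 the same ranges were -0.86 in MRPL43 to 0.89 in MRPS18C, and -1.37 in MRPL51 to 0.65 in MRPS12. No member was the lowest or the highest on more than 1 array. By role, the 37 large subunit probes had a median mean of -0.09 and the 20 small subunit probes -0.03; 24 and 10 of them were below 0, and 11 and 6 were in the labels' order. The 34 probes for counterparts of bacterial proteins had a median of -0.10 and the 23 mitochondria-specific ones -0.08. These medians differ by less than 0.10, while single members differ by far more.

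Genes with 2 probes show how far 1 gene's ratio depended on the spot. MRPL14, which sits at the face where the subunits join, had -0.16 and -0.22 in DLD-1 and -0.50 and -0.55 in HT-29 on probe AGhsB251524, but 0.80 and -1.23 in DLD-1 and 0.79 and -0.21 in HT-29 on probe AGhsB130622. The first probe kept 1 sign with channel 2 as treated. The second kept 1 sign only in the labels' order, where its mean was 0.76 with a limma adjusted p of 0.132. The MRPL48 probes gave 0.25, -0.83, 0.41 and -0.01 on AGhsA100113 and 0.65, -0.40, 0.73 and 0.24 on AGhsB041513, in the order of DLD-1 array 1 and 2 and HT-29 array 1 and 2. DLD-1 array 2 was the lowest in both. Channel 1 of AGhsB041513 exceeded background on only 2 arrays, and its mean of 0.31 became 1.63 after plain background subtraction, so its ratios are uncertain. MRPS11, a small subunit protein, gave the values above on its brighter probe, against 0.06, -2.29, 1.29 and 0.09 on the dim one, which was measured on 2 arrays only. MRPL4 gave -0.02, -0.46, 0.47 and -0.58 on its brighter probe and 0.15, 0.49, 0.49 and -0.68 on AGhsB100714, which was measured on 3 arrays; the probes took opposite signs on both DLD-1 arrays and the same sign on both HT-29 arrays.

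**Figure D4:**
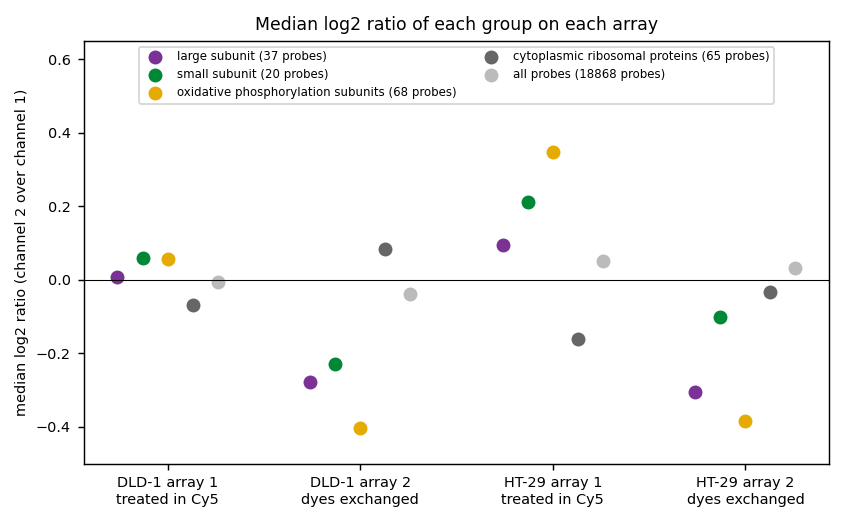
Median log2 ratio of channel 2 over channel 1 (y axis) on each of the 4 arrays (x axis) for large and small subunit members, oxidative phosphorylation subunits, cytoplasmic ribosomal proteins and all probes. Both member groups and the oxidative phosphorylation subunits lie above 0 on each array 1 and below 0 on each dye-exchanged array, while the cytoplasmic ribosomal proteins do not.

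The same dye pattern was seen in the nuclear genes for oxidative phosphorylation, whose products join the proteins that mitochondrial ribosomes make. Their 68 measured probes had medians of 0.06 and -0.40 in DLD-1 and 0.35 and -0.38 in HT-29. None of the 68 passed the limma test with channel 2 as treated; in the labels' order NDUFC2, a complex I subunit, rose with a mean of 0.89 (limma adjusted p 0.0402) and ATP5MC3, a subunit of the ATP synthase ring, rose with a mean of 0.91 (limma adjusted p 0.0346). The 65 measured probes for cytoplasmic ribosomal proteins had medians of -0.07 and 0.08 in DLD-1 and -0.16 and -0.03 in HT-29, and none passed in either reading. Whether a dye effect or the exchanged channels set the members' pattern was not tested, and with 1 array per orientation in each line they cannot be told apart.

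Other proteins that work with these ribosomes were mostly alike. DAP3 and PTCD3, small subunit proteins under other names, had means of -0.06 and 0.00. Of 9 measured translation factors 1 passed the test with channel 2 as treated. This was OXA1L, the insertase that receives new proteins from the mitochondrial ribosome at the inner membrane. Its log2 ratios were 0.51 and 2.94 in DLD-1 and 0.82 and 0.35 in HT-29, with a mean of 1.16 and a limma adjusted p of 0.000208. The DLD-1 array 2 value stood far above the other 3, and without that array the mean was 0.55 with an adjusted p of 0.135. The call was also lost in limma without HT-29 array 1 (mean 1.04, adjusted p 0.248), without HT-29 array 2 (mean 1.27, adjusted p 0.804), with block medians at 0 (mean 1.08, adjusted p 0.616), after plain background subtraction (mean 1.27, adjusted p 0.912) and on array 1 of each line alone (mean 0.66, adjusted p 0.103). The OXA1L mean in the labels' order was -0.49 with a limma adjusted p of 0.444.

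None of the other lists of mitochondrial gene expression held a probe past the test in either reading. Of the translation factors the lowest was MTIF2, the initiation factor that brings the first tRNA, at -0.37, and the list's median was -0.15. The 14 measured assembly and ribosomal RNA modification factors had a median of 0.04, from -0.42 in MALSU1, which binds the large subunit at MRPL14, to 0.28 in NSUN4, a ribosomal RNA methyltransferase. The 13 probes for mitochondrial aminoacyl-tRNA synthetases had a median of 0.09, from -0.30 in HARS2 to 0.54 in IARS2. Several of the 13 were for the same gene, KARS1, and the median was the value of KARS1 probe AGhsB010223. The 12 probes for mitochondrial DNA maintenance and transcription had a median of 0.04, with -0.35 in TEFM, an elongation factor, at the low end. The highest value in that list, 0.78 in MTERF1, a transcription terminator, is set in part by background: its channel 1 exceeded background on only 1 of the 4 arrays, and its limma adjusted p was 0.147.

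The 2 lines could also be set side by side without regard to which channel held the drug-treated RNA, by the average log2 signal of both channels of a spot. Array 1 of HT-29 was compared with array 1 of DLD-1 and array 2 with array 2, after quantile normalization of the average signal. With 1 replicate per line there is no test. Of 57 members, 4 were at least 2-fold lower in HT-29 on both pairs, or 7.02%, against a background of 2.90%. None was at least 2-fold higher, against 2.11%. At any size 29 members were lower in HT-29 on both pairs (background 28.0%) and 9 were higher (20.2%).

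Among members measured on all arrays the lowest in HT-29 was MRPS14, a small subunit protein with a bacterial counterpart. Its average log2 signal was 11.94 and 11.93 on the DLD-1 arrays and 10.20 and 9.20 on the HT-29 arrays, differences of -1.75 and -2.72. DLD-1 was thus near constant and both HT-29 arrays were lower. Channel 1 of MRPS14 exceeded background on only 3 of the 4 arrays, and MRPS14 left the count when both channels had to exceed it. MRPL39 had 11.73 and 11.58 in DLD-1 and 10.28 and 9.65 in HT-29, with differences of -1.45 and -1.92. MRPL3, a large subunit protein that in bacteria reaches towards the catalytic centre, had 12.34 and 12.15 in DLD-1 and 11.09 and 10.10 in HT-29. MRPL27, the counterpart of a bacterial protein near the same centre, had 11.70 and 12.06 in DLD-1 and 10.48 and 10.66 in HT-29. In each of these 4 genes the arrays of the lines did not overlap. That is no separate result, since the 4 were picked for a 2-fold difference on both pairs. The share of all probes without overlap is not given here. MRPL35 and MRPL58, each measured on 3 arrays and so left out of the count, had larger or similar differences. MRPL35 had 11.67 and 11.77 in DLD-1 and 8.85 and 8.86 in HT-29, and MRPL58 had 11.04 and 10.66 in DLD-1 and 8.71 and 8.78 in HT-29. Without the filter both were at least 2-fold lower in HT-29 on both pairs, which made 6 of 65 members, against 1095 of 29591 probes. At least 2-fold higher were 0 members and 1182 probes. On HT-29 array 1 the background-subtracted intensities of channels 1 and 2 were low, at 87 and 108.1 for MRPL35 and 111.9 and 56.39 for MRPL58.

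Some other members differed on 1 pair of arrays only. MRPS22, a mitochondria-specific small subunit protein, was lower in HT-29 by differences of -2.21 and -0.66, and MRPL48 (probe AGhsB041513) of -1.99 and -0.15. On the high side MRPL4 (probe AGhsA140820), which lines the exit tunnel, had 11.68 and 12.53 in DLD-1 and 13.58 and 13.19 in HT-29, higher in HT-29 by 1.89 and 0.66. The other MRPL4 probe, AGhsB100714, measured on 3 arrays, had differences of -2.89 and 0.49. MRPS2, at the back of the small subunit, was higher by 0.02 and 2.23. MRPS10, MRPS18B, MRPL28 and MRPS33 were higher on both pairs with means of 0.49 to 0.53.

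**Figure D5:**
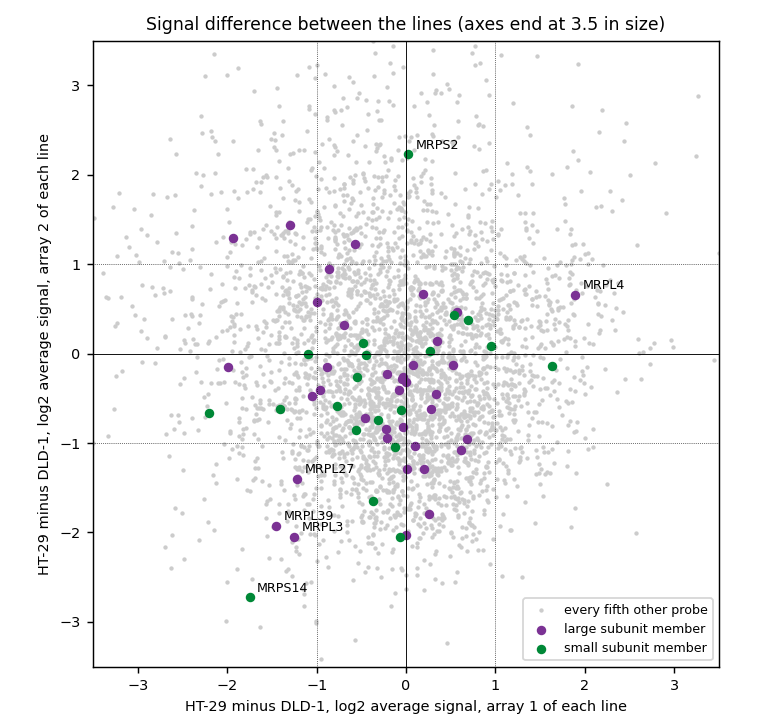
Difference in average log2 spot signal, HT-29 minus DLD-1, on array 1 of each line (x axis) and on array 2 (y axis), for large and small subunit members and 1 in 5 of the other probes; dotted lines mark 2-fold. MRPS14, MRPL39, MRPL3 and MRPL27 lie in the lower left corner beyond 2-fold on both pairs, and no member lies beyond it in the upper right corner.

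The agreement between the pairs was poor for all probes, which limits these values. The differences on pair 1 and pair 2 correlated at r = -0.05 over 18868 probes and at 0.11 over the 57 members, a description across probes on shared arrays. The median difference of members was -0.13 on pair 1 and -0.41 on pair 2, against -0.07 and -0.13 for all probes. With the print blocks of each array brought to equal medians, the member median was -0.09, against 0.00 for all probes. MRPS14 and MRPL3 remained at least 2-fold lower on both pairs under that setting, MRPL39 and MRPL27 did not, and MRPS28 and MRPS22 joined them. Of all 18868 probes, 390 were at least 2-fold lower on both pairs under it and 344 higher.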

How the data were processed

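Total RNA from the DLD-1 and HT-29 cell lines was amplified, labelled with Cy3 and Cy5 and hybridised to 4 oligonucleotide arrays of 30336 spots, per the labels' protocols. The authors deposited the scanned spot intensity, local background and background SD of each channel, and a background-subtracted intensity, per the file headers. They also deposited in each file a log2 ratio of channel 1 over channel 2, centred on the array median. The deposited series table holds its negative, log2 of channel 2 over channel 1. The scanner and image software are not stated in the labels or headers, and depth has no counterpart here: the number of arrays limits the precision.

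Intensities were corrected with normexp (offset 50) and loess-normalized within arrays in limma 3.58.1 (R 4.3.3). Control spots and 49 probes marked bad were left out. Line means were tested with lmFit and eBayes over all probes measured on all 4 arrays, two-sided. The replicates are the 2 lines, since arrays of a line hold the same conditions. Spot names came from the platform annotation. Code was tested on simulated data. Members and lists were chosen with earlier results of these data known. Members named with values are those past the test, with 1 sign on 4 arrays, with the 6 highest or lowest means or signal differences, the latter only with 1 sign on both array pairs, or with discordant probes; MRPL35, MRPL46 and MRPL58 were added after their values were seen. Alternatives were the labels' channel order, block medians, median centring, background subtraction, the series table, the filter, gene averages and each array left out.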

Additional observations from a re-analysis of the deposited data

Results flagged for a closer look

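4 of the 57 members had ratios of opposite sign in the lines on every array, with channel 2 read as treated, against 7.41% of all probes; the member share was 7.02%. The difference between the lines was not tested for any of them. MRPS18A, a large subunit protein, had -0.27 and -0.83 in DLD-1 and 0.31 and 0.18 in HT-29, so that the HT-29 mean exceeded the DLD-1 mean by 0.80. MRPS30, also a large subunit protein, had -0.12 and -0.29 in DLD-1 and 0.15 and 0.47 in HT-29, a difference of 0.51. MRPL16, the counterpart of a bacterial protein at the tRNA binding site, had -0.17 and -0.03 in DLD-1 and 0.28 and 0.14 in HT-29, a difference of 0.31. MRPS6, a small subunit protein, ran the other way, with 0.10 and 0.33 in DLD-1 and -0.51 and -0.22 in HT-29, a difference of -0.58. These contrasts depended on the reading of the channels. In the labels' order the DLD-1 and HT-29 means were 0.28 and 0.06 for MRPS18A and 0.09 and -0.16 for MRPS30. They were -0.07 and 0.07 for MRPL16 and -0.12 and -0.14 for MRPS6.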

How the results depend on the processing

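No member passed the both-line limma test under any alternative run, including gene averages (55 member genes of 8470), while calls over all probes ran from 0 after background subtraction to 631 up and 242 down without DLD-1 replicate 2. The count of members with 1 sign on all arrays was 8; it was 3 with block medians at 0, 40 on array 1 of each line alone (chosen after seeing the data), and 12 (without DLD-1 replicate 1), 25 (without DLD-1 replicate 2), 14 and 14 (without either HT-29 replicate) when fewer arrays had to share a sign. The member median of -0.08 became 0.19 in the labels' order and 0.054 on array 1 of each line alone, and ranged from -0.17 without HT-29 replicate 1 to 0.048 without DLD-1 replicate 2, with -0.10 and 0.039 for the other 2. MRPL43 was the 1 HT-29 member at least 2-fold lower after background subtraction. On single arrays 4 HT-29 members were at least 2-fold lower without HT-29 replicate 1 (MRPL35, MRPL50, MRPL51 and MRPS28). In DLD-1, 7 members were without DLD-1 replicate 1 (MRPL14, MRPL27, MRPL35, MRPL36, MRPL58, MRPS7 and MRPS11). Without replicate 2 of either line the count was 0. The share of all probes is not given for the MRPL43 count after background subtraction or for these single-array counts. It is also not given for the 1-sign counts of the alternatives above. None of these can therefore be set against a background. The signal count of 4, all lower in HT-29, became 13 on pair 1 alone (11 lower, 2 higher). On pair 2 alone it became 17 (13 lower, 4 higher). Only 1 pair had to pass there. Of all 18868 probes, 3331 were lower and 2206 higher on pair 1, and 4005 and 3214 on pair 2. The count was 3 to 6 otherwise, all lower in HT-29. Over all probes tested in those settings, 305 to 1095 were lower and 238 to 1182 higher. Of 164 recomputed means of 14 named members, 43 moved by more than the SD of the line means and 10 changed sign, 8 of these in the labels' order. The causes were not tested.

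Treated and untreated RNA share each array, so every log2 ratio compares them within the array. No further pairing of cultures was possible, because the labels number no replicates. Numbers 1 and 2 stand for the dye orientation, which was averaged within each line and matched between lines in the signal comparison.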

Other observations

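Probes without a platform symbol were not members, but 3 are described in the deposited files as mitochondrial ribosomal proteins. The probe described as MRPL30 had log2 ratios of 0.22 and -0.54 in DLD-1 and 0.73 and -2.07 in HT-29, and was measured on 3 arrays. The probe described as MRPL24 had 0.08 and -0.73 in DLD-1 and 0.05 and 0.29 in HT-29. The probe described as MRPS11 had 0.06 and 0.28 in DLD-1 and 1.07 and 0.43 in HT-29, all 4 above 0, unlike the brighter MRPS11 probe among the members, which was above 0 on DLD-1 array 2 only. Its mean of 0.46 had a limma adjusted p of 0.963.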
